A study of Rattus norvegicus with 14 samples.

Results

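Cytochrome P450 genes of the Cyp2a and Cyp3a families and Cyp2e1 were followed in livers of male rats fed a vitamin A-deficient or a vitamin A-sufficient diet. The members were Cyp2a1, Cyp2a2, Cyp3a2, Cyp3a9, Cyp3a18 and Cyp2e1, taken as every probe set whose platform gene symbol is or contains one of these 6 names. The choice gave 10 of the 8740 probe sets on the arrays after controls were removed. Of these, 8 carried 1 symbol and 2 carried several, namely Cyp2a2 with Cyp2a1 and Cyp3a2 with Cyp3a23-3a1.

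Liver RNA came from rats aged 74 days that had received their diet for 53 days, and each diet had 7 Affymetrix arrays. In both diets, about 10 µg of RNA went onto 4 arrays (numbers 1 to 4) and about 2 µg onto 3 arrays (numbers 1, 2 and 4). No label names the strain, the vitamin A content of the diets or the time of day at which livers were taken. Arrays that share both diet and number were averaged into one value, which left 4 values from the deficient diet and 4 from the sufficient diet; number 3 of each diet rests on a single 10 µg array. Whether arrays of one number came from one liver is not labelled. The p-values therefore measure only the spread between these averaged values, which may be technical, and the number of arrays limits their precision.

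P450s of the liver are haem enzymes of the endoplasmic reticulum that add oxygen to steroids, drugs and other small lipophilic molecules, with electrons passed on by P450 reductase. In rat liver several of them differ between the sexes under the control of the growth hormone pattern: CYP2A1 and CYP3A9 are known as female-predominant forms, and CYP2A2, CYP3A2 and CYP3A18 as male-predominant forms. CYP3A genes are classical targets of the pregnane X receptor, which binds DNA as a partner of the retinoid X receptors. CYP2E1 oxidises ethanol, acetone and other small molecules and is found mainly in hepatocytes around the central vein.

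Of the 10 member probe sets, 8 end in _s_at, the platform's mark for probe sets that can bind more than one transcript, and only those of Cyp2a2 (J04187_at) and Cyp3a9 (U46118_at) do not. Probe sequences were not analysed here, so how far a probe set tells relatives apart within a family was not tested, and each is named by its annotation. Promoters lie outside what the probe sets measure and are shown because the pregnane X receptor is known to act on Cyp3a promoters. The 200 bases before the RefSeq start of Cyp3a2, of its relative Cyp3a23-3a1 and of the other Cyp3a members are printed 5′ to 3′ on the gene's strand from build GRCr8, to show how near the first pair is and how far the others are. The start is that of the RefSeq promoter table. For Cyp3a2 the RefSeq gene extends further upstream, so that 29 bases of its window lie inside the gene, and its positions below count from the promoter table's start. Capitals mark the receptor half-site letters AGGTCA and AGTTCA on either strand, direct repeats of them, and TATAAG on the gene's strand.
Cyp3a2 (chr12:14343858-14344057, minus strand): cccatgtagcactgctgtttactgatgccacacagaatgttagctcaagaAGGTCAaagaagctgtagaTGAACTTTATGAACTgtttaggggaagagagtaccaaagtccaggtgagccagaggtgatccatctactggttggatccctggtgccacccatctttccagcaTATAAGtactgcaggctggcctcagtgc
Cyp3a23-3a1 (chr12:14398804-14399003, minus strand): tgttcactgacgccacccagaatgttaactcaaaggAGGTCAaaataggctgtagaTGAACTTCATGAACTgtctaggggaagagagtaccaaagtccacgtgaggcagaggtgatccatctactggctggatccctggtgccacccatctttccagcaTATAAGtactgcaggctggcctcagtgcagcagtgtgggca
Cyp3a18 (chr12:13994112-13994311, plus strand): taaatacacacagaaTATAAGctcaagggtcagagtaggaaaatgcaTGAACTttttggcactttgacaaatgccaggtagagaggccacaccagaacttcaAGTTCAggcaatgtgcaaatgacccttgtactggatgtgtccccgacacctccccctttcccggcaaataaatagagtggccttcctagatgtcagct
Cyp3a9 (chr12:21960161-21960360, minus strand): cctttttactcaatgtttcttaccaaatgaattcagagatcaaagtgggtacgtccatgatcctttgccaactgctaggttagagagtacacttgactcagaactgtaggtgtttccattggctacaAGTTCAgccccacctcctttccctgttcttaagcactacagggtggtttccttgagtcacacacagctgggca
Cyp3a2 and Cyp3a23-3a1 shared a run of 59 identical bases in these windows, whereas every other pair of the 6 windows compared, those of Cyp2a1 and Cyp2e1 included, shared at most 10. Both hold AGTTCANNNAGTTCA read on the opposite strand, at bases -131 to -117 in Cyp3a2 and -144 to -130 in Cyp3a23-3a1. These letters were chosen because Cyp3a2 holds them. Searched on both strands, they occurred in 2 of 33360 distinct RefSeq promoters over 250 bases (0.006%), and those were these genes, while any direct repeat of the half-sites with 3 bases between occurred in 0.039%. The single half-sites are common, since AGGTCA occurred in 14.1% and AGTTCA in 12.2% of the same promoters and TATAAG in 4.0%. A match of letters is a description and not a binding site, and the arrays measured no binding.

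Levels are given as log2 of the intensity plus 16, with all arrays brought to the same trimmed mean, 500. A level of 4 is an intensity of 0, and differences are deficient minus sufficient. Levels of different probe sets are not on a common scale, because each probe set binds its transcript with its own efficiency. The tissue label was checked against 11 hepatocyte markers such as albumin and transthyretin. Their summed level was 18.06 to 18.23 in deficient livers and 17.79 to 18.14 in sufficient livers. None passed the test, though all 11 had positive differences (median 0.17). Over all 5244 probe sets above the brightness filter, limma called 90 at an adjusted p under 0.05, with 38 higher (0.725%) and 52 lower (0.992%) in deficient livers. When the arrays were instead brought to one median, this split was 17 higher and 58 lower. In whole liver RNA, fewer cells of a type and less RNA per cell cannot be told apart.

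None of the 10 member probe sets passed the limma test at an adjusted p under 0.05, against a background of 1.72% of all probe sets tested. At an unadjusted p under 0.05 there were 5 of 10, against a background of 14.5% and 29 of the 66 other Cyp probe sets tested. The 5 were the 3 probe sets of Cyp2e1 and that of Cyp2a1, with higher means in deficient livers (4 of 10, against a background of 9.08%), and that of Cyp3a9, with a lower mean (1 of 10, against 5.38%). The 3 Cyp2e1 probe sets measure 1 gene and are not independent. The 4 deficient values all lay above the 4 sufficient values for 2 of the 10 probe sets, against a background of 5.84%, and all lay below for 0, against 3.07%, so that 2 of 10 did not overlap in either direction, against 8.91%. Other treatments of the data gave other counts: 1 member called with a brightness filter at the 60th percentile (background 2.77%), 1 with array weights (2.14%), and 4 when the 14 arrays were kept separate with a random block (4.77%). The member called by all 3 was the first Cyp2e1 probe set, joined in the last by the other Cyp2e1 probe sets and Cyp2a1. The median difference of the members was 0.19, and that of all probe sets tested was 0.04.

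**Figure D1:**
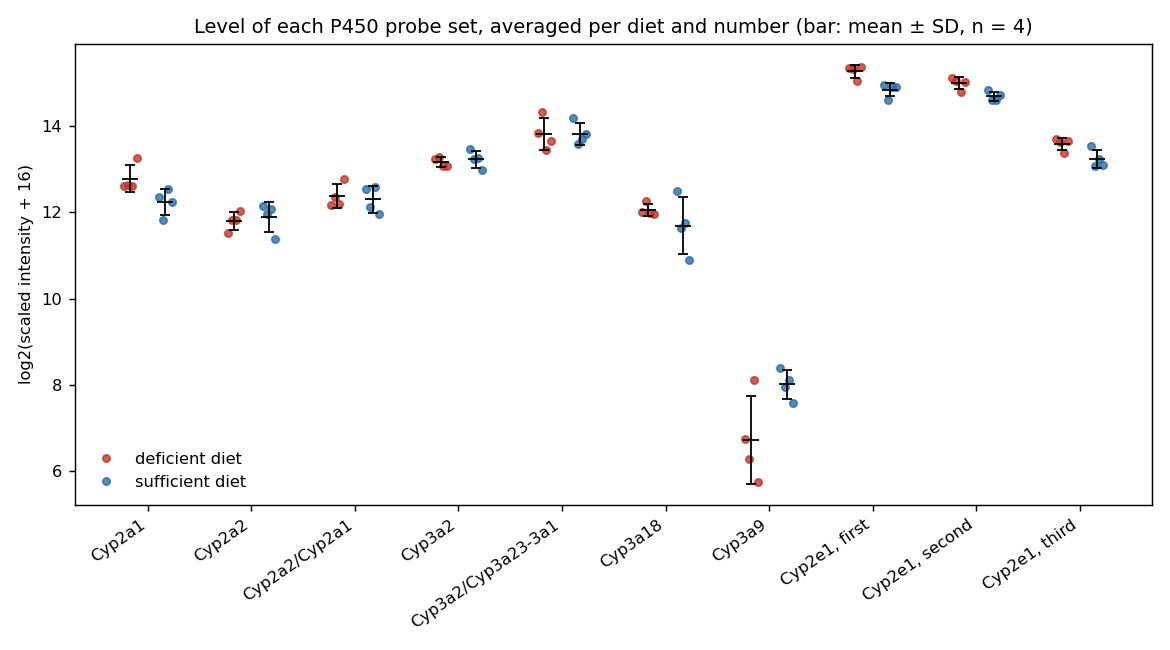
Level of each member probe set as log2(scaled intensity + 16), one point per averaged value, with deficient (red) left of sufficient (blue) and bars for the mean ± SD (n = 4). Cyp3a9 is dim, with 3 of the deficient values between 5.76 and 6.75 and 1 at 8.12 among the sufficient values, and the first Cyp2e1 probe set has groups that do not overlap.

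Cyp2e1, the ethanol- and acetone-oxidising form, was measured by 3 probe sets. On the first (S48325_s_at) the levels were 15.33, 15.32, 15.04 and 15.36 in deficient livers 1 to 4, against 14.94, 14.61, 14.89 and 14.89 in sufficient livers 1 to 4. Every deficient value lay above every sufficient value, with number 3 the lowest of the deficient values and number 2 the lowest of the sufficient ones. The mean was 15.26 ± 0.15 in deficient livers and 14.83 ± 0.15 in sufficient livers (SD, n = 4 each). The difference of 0.43 (SE 0.10, 95% interval 0.20 to 0.66), or 1.35-fold, had a limma adjusted p of 0.0690.

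The second Cyp2e1 probe set (M20131cds_s_at) had 15.11, 15.03, 14.79 and 15.02 in deficient livers, against 14.83, 14.61, 14.61 and 14.71 in sufficient livers. The groups overlapped only through deficient number 3, which lay below sufficient number 1. Its difference was 0.29 (SE 0.09, 95% interval 0.09 to 0.50, limma adjusted p = 0.166). The third (AF056333_s_at) had 13.69, 13.62, 13.37 and 13.64 in deficient livers, against 13.54, 13.08, 13.23 and 13.10 in sufficient livers. Again deficient number 3 was the one deficient value below sufficient number 1, and the difference was 0.34 (SE 0.12, 95% interval 0.07 to 0.61, limma adjusted p = 0.232). Across the 8 averaged values the Cyp2e1 probe sets correlated with each other at 0.89 to 0.94, as a description over values that share arrays.

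The Cyp2e1 probe sets lay near the top of the brightness range. On each array, 4 to 37 probe sets were brighter than the first and 13 to 38 brighter than the second. The deposited intensity of the first reached 85610.5, and the brightest probe set per array lay between 86256.6 and 123626. Quantile normalization, which ties the brightest values of all arrays together, gave 0.28 for the first probe set (limma adjusted p = 0.284) and 0.15 for the second (0.399). With all arrays brought to one median, the first had 0.36 (limma adjusted p = 0.185) and the second 0.23 (0.397). Whether signal at this brightness is proportional to RNA was not tested.

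Cyp2a1, a testosterone hydroxylase known as female-predominant in rats, had 12.61, 12.64, 12.61 and 13.25 in deficient livers (M33312cds_s_at), against 12.36, 11.82, 12.54 and 12.24 in sufficient livers. The groups did not overlap, though deficient numbers 1 and 3 stood only slightly above sufficient number 3, and deficient number 4 stood well above the rest. The mean was 12.78 ± 0.32 in deficient livers and 12.24 ± 0.31 in sufficient livers (SD, n = 4 each). The difference was 0.54 (SE 0.18, 95% interval 0.14 to 0.94), or 1.45-fold, with a limma adjusted p of 0.197.

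Cyp2a2, the related form known as male-predominant, had 11.51, 11.82, 11.83 and 12.03 in deficient livers (J04187_at), against 12.14, 11.96, 12.07 and 11.37 in sufficient livers. The groups overlapped throughout, and sufficient number 4 was the lowest of all 8. The difference was -0.09 (SE 0.17, 95% interval -0.47 to 0.29, limma adjusted p = 0.896). The probe set annotated to both Cyp2a2 and Cyp2a1 (J02669_s_at) had 12.17, 12.36, 12.19 and 12.78 in deficient livers, against 12.53, 12.11, 12.59 and 11.95 in sufficient livers. Its groups also overlapped, with a difference of 0.08 (95% interval -0.31 to 0.47, limma adjusted p = 0.904). Within diets it correlated at 0.82 with the Cyp2a2 probe set and at 0.82 with the Cyp2a1 probe set, as a description over 8 values. Over 22 alternative treatments of the data the sign was kept in 21 for the Cyp2a2 probe set (range -0.26 to 0.01) and in 20 for the shared one (-0.05 to 0.19).

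**Figure D2:**
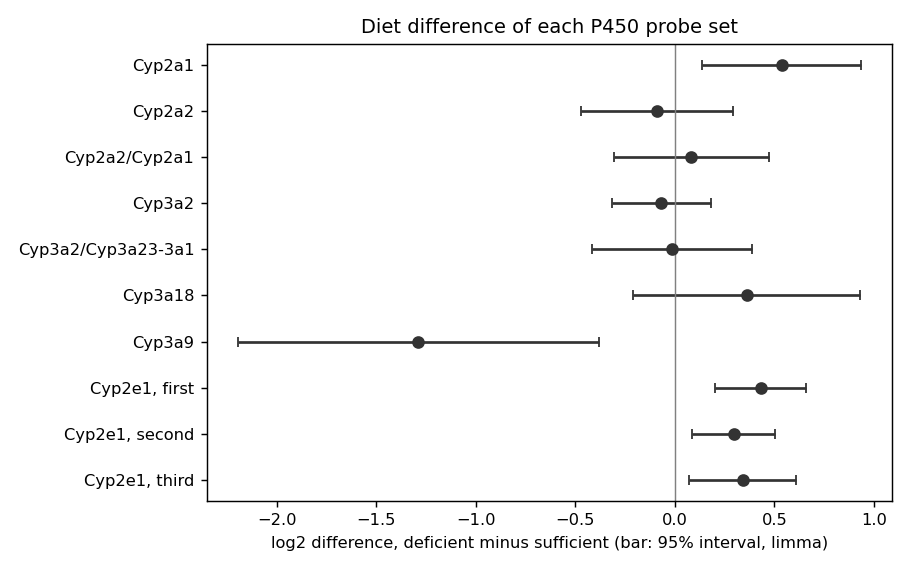
Log2 difference (deficient minus sufficient) of each member probe set with its 95% interval from limma. The intervals of Cyp2a1 and the 3 Cyp2e1 probe sets lie above 0, that of Cyp3a9 below 0, and the other 5 include 0.

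Cyp3a2, a male-predominant testosterone hydroxylase, had 13.24, 13.27, 13.06 and 13.08 in deficient livers (M13646_s_at), against 13.46, 13.23, 13.25 and 12.98 in sufficient livers. The 8 values interleaved, and the difference was -0.07 (SE 0.11, 95% interval -0.32 to 0.18, limma adjusted p = 0.872). The probe set shared with Cyp3a23-3a1 (X62086mRNA_s_at) had 13.84, 14.31, 13.43 and 13.64 in deficient livers, against 14.18, 13.59, 13.70 and 13.81 in sufficient livers. Deficient number 2 was the highest and deficient number 3 the lowest of the 8, and the difference was -0.01 (95% interval -0.41 to 0.39, limma adjusted p = 0.988). Over 22 alternative treatments of the data the sign was kept in 15 for this probe set (range -0.18 to 0.31) and in 20 for the Cyp3a2 probe set (-0.15 to 0.02).

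Cyp3a18, also male-predominant, had 12.01, 12.26, 11.98 and 11.95 in deficient livers (D38381_s_at), against 12.49, 11.63, 11.74 and 10.90 in sufficient livers. The deficient values lay close together and the sufficient values spread on both sides of them, with an SD of 0.14 in deficient livers and 0.65 in sufficient livers. The difference was 0.36 (SE 0.26, 95% interval -0.21 to 0.93, limma adjusted p = 0.599). Dbp, a clock output gene whose transcript swings over the day, had 9.43, 9.18, 9.42 and 9.72 in deficient livers, against 4.69, 9.37, 7.68 and 6.58 in sufficient livers. The sufficient livers also spread widely in Dbp, and sufficient number 1 had the lowest Dbp and the highest Cyp3a18. Sufficient number 4 went the other way, with the next lowest Dbp (6.58) and the lowest Cyp3a18 (10.90). With Dbp as a covariate no member was called. The difference was then 0.71 for Cyp3a18 (limma adjusted p = 0.579), 0.54 for the third Cyp2e1 probe set (0.255), 0.31 for the probe set shared by Cyp3a2 and Cyp3a23-3a1 (0.772) and -1.10 for Cyp3a9 (0.650). Leaving out 1 number at a time gave Cyp3a18 differences of 0.10 to 0.63. Of 7 clock output genes none passed, Dbp (2.36, limma adjusted p = 0.157) and Nr1d1 (0.86, 0.164) having the smallest p-values. The part of the time of collection in these values was not tested.

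Cyp3a9, known as female-predominant in rat liver, gave a dim signal, with 2026 to 7223 brighter probe sets per array. Its levels were 6.75, 6.27, 8.12 and 5.76 in deficient livers (U46118_at), against 8.39, 7.96, 8.12 and 7.57 in sufficient livers. Deficient numbers 1, 2 and 4 lay below every sufficient value, and deficient number 3 lay among the sufficient values. The mean was 6.72 ± 1.01 in deficient livers and 8.01 ± 0.34 in sufficient livers (SD, n = 4 each). The difference was -1.29 (SE 0.41, 95% interval -2.19 to -0.38), a 2.44-fold lower mean, with a limma adjusted p of 0.167. Without deficient number 3 it was -1.75 with a limma adjusted p of 0.00829, in a fit that called 1.56% of probe sets. The first Cyp2e1 probe set then had 0.51 and an adjusted p of 0.0425. Deficient number 3 was the only deficient value that overlapped in Cyp3a9, so leaving it out separates the groups. With any other number left out, the limma adjusted p of Cyp3a9 was 0.196 to 0.336.

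As scaled intensities, Cyp3a9 gave 76.2, 82.9, 261 and 16.5 on the deficient 10 µg arrays 1 to 4, against 402, 265, 263 and 190 on the sufficient 10 µg arrays. The deficient 2 µg arrays 1, 2 and 4 gave 175, 75.5 and 123, against 396, 320 and 254 on the sufficient 2 µg arrays. At 2 µg every deficient array was below every sufficient array, while at 10 µg array 3 of the deficient diet overlapped. The lowest of these intensities is close to the 16 added before the log, so the size of the Cyp3a9 difference depends on it. It was -1.47 with 1 added and -0.97 with 64 added. Arrays of one diet and number could differ widely, as deficient number 4 did between the amounts, and the shift from 10 to 2 µg in Cyp3a9 was 0.61 on the log2 scale with an SD of 0.84 over 6 pairs.

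**Figure D3:**
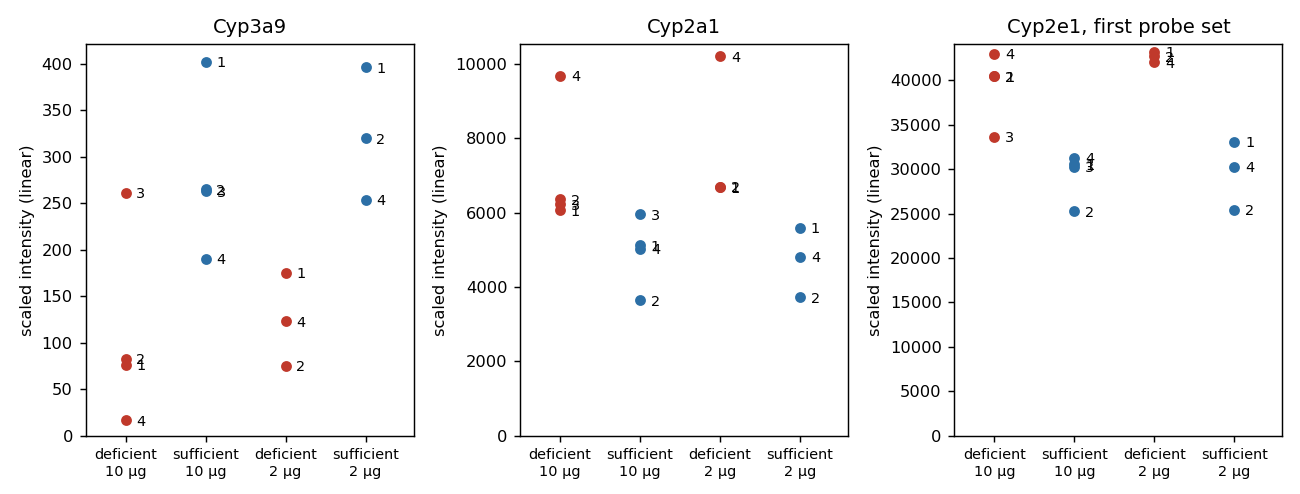
Scaled intensity (linear) of Cyp3a9, Cyp2a1 and the first Cyp2e1 probe set on each array, labelled by number, by diet and RNA amount. Deficient array 3, present only at 10 µg, has the highest Cyp3a9 (261) and the lowest Cyp2e1 (33619) of the deficient arrays.

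The diet differences were also taken at each RNA amount. Cyp3a9 averaged 6.57 ± 1.26 in deficient livers and 8.16 ± 0.42 in sufficient livers at 10 µg (SD, n = 4 each), and 7.07 ± 0.53 in deficient livers and 8.39 ± 0.30 in sufficient livers at 2 µg (SD, n = 3 each). Cyp2a1 differed by 0.51 at 10 µg and 0.73 at 2 µg, and the first Cyp2e1 probe set by 0.42 and 0.53. The amounts do not cover the same numbers, because number 3 is present only at 10 µg. Its deficient array had the lowest intensity of the first Cyp2e1 probe set (33619) among the deficient arrays. In limma's test of diet by RNA amount, 0 of 5244 probe sets were called (0%), 96 had an unadjusted p under 0.05 (1.83%), and none of the members did.

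Within the families, 3 pairs of a female-predominant and a male-predominant gene were compared by an exact two-sided permutation test over the 8 averaged values, whose smallest possible p is 0.0286. The log2 level of Cyp2a1 minus that of Cyp2a2 was 0.98 ± 0.21 in deficient livers and 0.36 ± 0.42 in sufficient livers (exact p = 0.0857, adjusted over the 3 pairs 0.129). Cyp3a9 minus Cyp3a2 was -6.44 ± 1.05 in deficient livers and -5.22 ± 0.15 in sufficient livers (exact p = 0.143, adjusted 0.143). Cyp3a9 minus Cyp3a18 was -5.33 ± 1.05 in deficient livers and -3.68 ± 0.32 in sufficient livers (exact p = 0.0571, adjusted 0.129). No pair passed, and the 2 female-predominant genes had differences of opposite sign. Without deficient number 3 both Cyp3a9 pairs had an exact adjusted p of 0.0429, with differences of -1.72 and -2.14. That number held the only deficient Cyp3a9 value among the sufficient ones, so its removal separates the groups. With any other number left out, the exact adjusted p of these pairs was 0.114 to 0.171.

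The members' levels were related to each other as a description over 8 averaged values that share arrays and diets. Cyp3a18 and Cyp3a2 correlated at 0.73, and at 0.93 within diets. Cyp3a9 and the first Cyp2e1 probe set correlated at -0.82, and at -0.59 within diets. Among 4321 probe sets with 1 symbol, those whose 8 values correlated best with Cyp3a9 were Pip5k1c (0.931), Kcnj1 (0.923) and Car3 (0.918). Those most like Cyp2a1 were Kcna6 (0.945), Acr (0.937) and Olr1523 (0.927), and those most like Cyp2a2 were Pisd (0.946), Cdh2 (0.942) and Ndufb3 (0.939). Cyp3a2 was most like Otc (0.933), Opa1 (0.927) and Pdlim3 (0.913), and Cyp3a18 most like Hsd3b7 (0.954), Ugt2b15 (0.949) and Pold3 (0.939). Those most like Cyp2e1 were Nap1l1 (0.961), Idh2 (0.944) and Cps1 (0.941). These genes were the best of a search over 4321 probe sets with only 8 values each. How high such correlations run by chance was not tested.

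**Figure D4:**
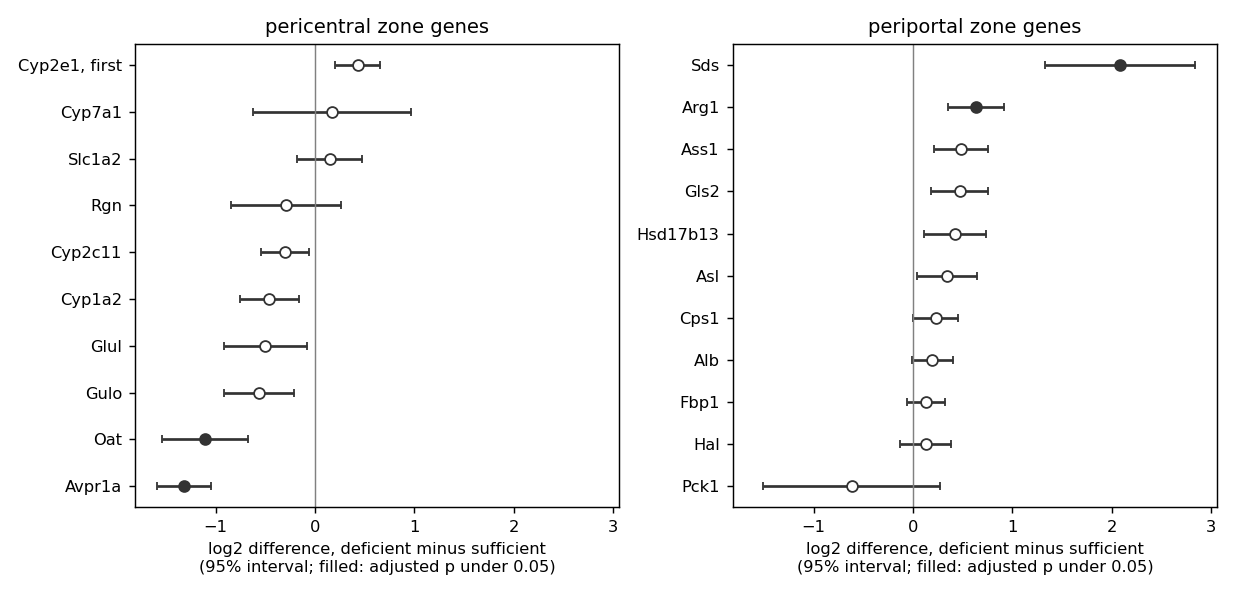
Log2 difference (deficient minus sufficient) with its 95% interval for genes known from the pericentral zone (left, with the first Cyp2e1 probe set on top) and the periportal zone (right), filled where the limma adjusted p was under 0.05. Avpr1a and Oat are filled below 0, Sds and Arg1 are filled above 0, and Cyp2e1 lies above 0.

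Since Cyp2e1 is a pericentral enzyme, other genes of that zone were listed with it. Of 9 pericentral genes tested, 0 rose and 2 fell, with a median of -0.46 against 0.05 for all 3135 genes. Of those 3135 genes, 26 rose and 33 fell. Avpr1a, a vasopressin receptor, fell by 1.32 (SE 0.13, limma adjusted p = 0.000198), and Oat, ornithine aminotransferase, fell by 1.11 (SE 0.20, limma adjusted p = 0.0161). Of 11 periportal genes tested, 2 rose and 0 fell, with a median of 0.34. Sds, serine dehydratase, rose by 2.09 and Arg1, arginase of the urea cycle, by 0.63 (limma adjusted p = 0.0101 and 0.0310). The first Cyp2e1 probe set thus had a difference of opposite sign to 7 of the 9 pericentral genes. Both zone lists were chosen with earlier results of these data known, so their counts are a description and no test of the zones.

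Of 17 receptors and factors known to control P450 genes, none passed, with a median of 0.03. The smallest p-values were those of Nr1h4, the bile acid receptor, at -0.45 (limma adjusted p = 0.167), and Hnf4a, a hepatocyte factor, at 0.33 (0.240). Rxra, the main retinoid X receptor of liver, had 8.86 ± 0.14 in deficient livers and 8.86 ± 0.08 in sufficient livers (SD, n = 4 each). None of 11 genes of electron supply and haem synthesis passed, and Alas1, the first enzyme of haem synthesis, had a difference of -1.01 (limma adjusted p = 0.224). Pgrmc1, which binds P450s, had one of -0.19 (0.476). Por, the reductase that feeds these enzymes, had 10.53 ± 0.12 in deficient livers and 10.47 ± 0.55 in sufficient livers (SD, n = 4 each). Of 20 other targets of the xenobiotic receptors, 1 passed: Sult2a6, a sulfotransferase, rose by 1.26 (SE 0.12, limma adjusted p = 0.000198). The list had a median of 0.09, with 11 of the 20 differences positive. The largest difference in it was a lower mean, that of Cyp2b2 at -2.05 (limma adjusted p = 0.133), and Ephx1 had -0.51 (0.0502). None of 12 steroid enzymes and none of 10 enzymes of ethanol, ketones and peroxide passed, with medians of 0.05 and -0.03. Sult1a1, a sulfotransferase, had a difference of 0.43 (limma adjusted p = 0.171), and Hsd17b13 one of 0.42 (0.187). Gpx1, a peroxidase, had a difference of 0.32 (limma adjusted p = 0.164), and Bdh1, which interconverts ketone bodies, one of -0.32 (0.253).

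Markers of other cells moved with diet beside these results. Of 6 erythroid markers tested, 4 fell, and their summed level was 11.91 to 12.67 in deficient livers, against 13.59 to 13.90 in sufficient livers. Of 4 bile duct markers none passed, with a summed level of 10.43 to 10.90 in deficient livers, against 9.81 to 10.27 in sufficient livers. Krt8 was by far the brightest of them, with means of 10.20 in deficient and 9.53 in sufficient livers. The sum therefore mostly follows Krt8, and whether its signal came from bile ducts was not tested. Of the others, 1 of 5 macrophage and 1 of 7 stellate or mesenchymal markers rose, 1 of 4 endothelial markers fell, and none of 3 lymphocyte markers passed. Summed macrophage markers had 12.83 to 13.31 in deficient livers, against 12.20 to 12.69 in sufficient livers. Summed endothelial markers had 9.07 to 9.34 in deficient livers, against 9.61 to 9.90 in sufficient livers. That sum follows Lyve1 (-1.04) and Aqp1 (-1.04), whereas Pecam1 (0.22) and Kdr (-0.02) were not lower by a like amount. Vwf, below the brightness filter, had means of 6.03 in deficient and 5.67 in sufficient livers, so endothelial markers did not fall as a whole. The sums of the stellate and lymphocyte markers overlapped between diets. Their part in the P450 values was not tested.

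Of the 66 other Cyp probe sets tested, 3 rose and 7 fell, against backgrounds of 0.725% and 0.992% of all probe sets, with a median of -0.14. The 7 belong to Cyp2c7 (4, of which 3 also carry Cyp2c7l1), Cyp2c13 (2) and Cyp2c22 (1), and are not independent. Cyp2c7, a female-predominant retinoic acid hydroxylase in rats, fell (limma adjusted p = 3.31e-05), with a mean level of 4.80 in deficient livers and 12.11 in sufficient livers on its own probe set. The deficient level is below the brightness filter and close to 4, the level of intensity 0, so the size of that difference depends on the 16 added before the log. The 3 probe sets shared with Cyp2c7l1 also fell, with differences of -5.45 to -4.67. Cyp2c22 fell by 3.27 and a probe set of Cyp2c13, a male-predominant form, by 2.60. The probe sets that rose were 2 of Cyp2c12, the classical female-specific form, by 1.54 and 1.38, and 1 of Cyp4a1, a fatty acid hydroxylase, by 0.75 (limma adjusted p = 0.00923, 0.00325 and 0.0483).

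**Figure D5:**
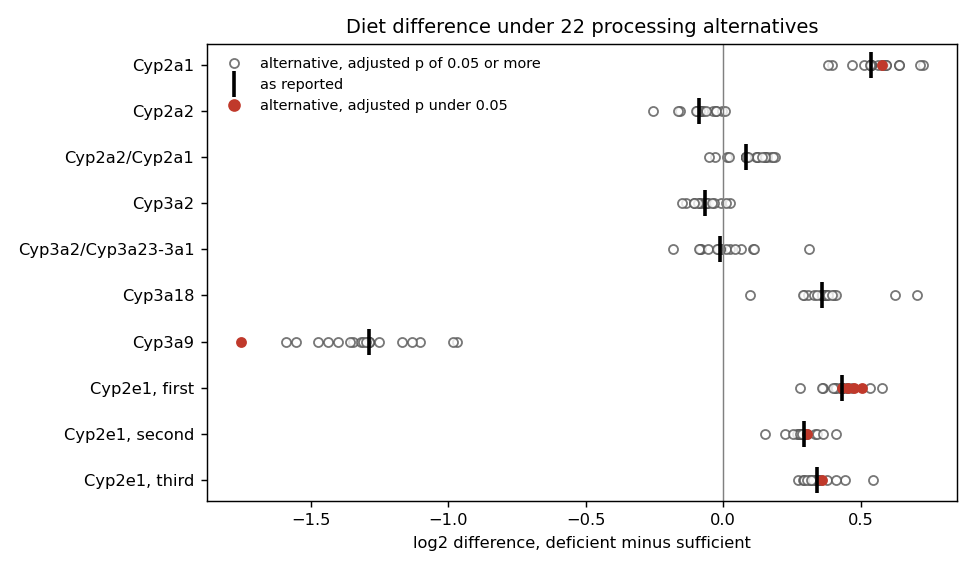
Log2 difference (deficient minus sufficient) of each member probe set as reported (black bar) and under 22 alternative treatments of the data (circles, red where the limma adjusted p was under 0.05). Cyp2a1, Cyp3a18, Cyp3a9 and all Cyp2e1 probe sets keep their sign in 22 of 22, Cyp2a2 in 21, Cyp3a2 and the probe set shared by Cyp2a2 and Cyp2a1 in 20, and the probe set shared by Cyp3a2 and Cyp3a23-3a1 in 15.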

How the data were processed

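The authors deposited 1 table of array intensity values for the 14 arrays; the program behind them and its settings are not given in the sources. Per the labels' protocols, targets were made by standard Affymetrix procedures. Here 59 control probe sets were removed, all arrays were brought to the same trimmed mean, 500 (2% trimmed at each end), and log2(intensity + 16) was taken, so these log2 values were computed from the deposited intensities. The mean shift between RNA amounts was removed, and arrays that share both diet and number were averaged. The test of diet by RNA amount instead used the arrays unaveraged. Probe sets above the 40th percentile of mean level (6.20) were tested with limma 3.58.1 in R 4.3.3 (lmFit and eBayes with trend, two-sided, Benjamini-Hochberg over all 5244). The code was tested on simulated data.

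Symbols came from the platform annotation, and promoters from RefSeq (GRCr8), which matched all members except Cyp2a2. All member probe sets are named; from each list, genes with the smallest p, from the likeness ranking the top 3. Rxra and Por were named after their values were seen, and Dbp as the covariate. The members and lists were chosen with earlier results of these data known. Deviations of arrays with the same diet and number correlated at 0.202 to 0.351, and those of the same number across diets at -0.0763 to 0.0672. The labels do not say whether numbers pair livers across diets. These correlations cannot decide it, because a pairing that touched few probe sets could give the same values. Alternatives covered scaling, pseudocount, filter, trend, weights, RNA amount, blocks, Dbp and leaving out each number.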

Additional observations from a re-analysis of the deposited data

Results flagged for a closer look

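In 3 groups of 4 averaged values, 1 value stood apart from the others by Dixon's 95% criterion, which chance meets in about 1 of 20 groups. The search covered each of the 10 member probe sets in both diets, and these groups share arrays and genes. Cyp2a1 was highest in deficient number 4, at 13.25, with the next deficient value at 12.64. The first Cyp2e1 probe set was lowest in deficient number 3, at 15.04, with the next deficient value at 15.32. The same probe set was lowest in sufficient number 2, at 14.61, with the next sufficient value at 14.89.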

How the results depend on the processing

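The count of member probe sets called, 0 as reported, was 1 with the filter at the 60th percentile (first Cyp2e1 probe set, limma adjusted p = 0.0480), 1 with array weights (the same, 0.0353) and 4 with the 14 arrays kept separate under a random block (the 3 Cyp2e1 probe sets at 0.00230, 0.0292 and 0.0475, and Cyp2a1 at 0.0303). It ranged from 0 to 2 when each number was left out, with the 2 coming without deficient number 3. The count over all probe sets, 90 as reported, was 33 with 2 µg arrays only, 250 with the random block and 23 with Dbp as a covariate, and 48 to 94 when each number was left out, with 59 without sufficient number 3 and 48 without deficient number 4. With the replicate number as a block across diets, 78 probe sets and 0 members were called, and the pair comparisons had adjusted p of 0.188, 0.25 and 0.188 by exact sign permutation, whose smallest p is 0.125. Leaving out each number gave -1.72 to -0.94 for Cyp3a9 minus Cyp3a2 and -2.14 to -1.38 for Cyp3a9 minus Cyp3a18. The cause of these changes was not tested. Dim signal limits Cyp3a9, which had 2026 to 7223 brighter probe sets per array.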
